A study of Mus musculus with 9 samples.

Results

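The respiratory chain and ATP synthase were followed through the genes of their nuclear-encoded subunits. Members were the genes whose mouse symbols begin Nduf with a, b, c, s or v and a number, are Sdha to Sdhd, or begin Uqcr, Cox4 to Cox8 or Atp5, with symbols marked -ps removed. Of 94 matching symbols 6 carried that mark, which left 88 genes of the 45904 rows of the expression table. Of these, 84 are protein-coding: 35 of complex I, 4 of complex II, 8 of complex III, 20 of complex IV and 17 of ATP synthase. The other 4 (Cox6c2, Ndufa11b, Ndufb4c and Ndufs6b) are annotated as processed pseudogenes and were kept apart. Ndufa4 and its paralog Ndufa4l2 were counted with complex IV, where the Ndufa4 protein is now placed.

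Transcript levels had been measured by sequencing mRNA from whole dorsal root ganglia of the sciatic nerve, which hold the cell bodies of sensory neurons together with satellite glia, Schwann cells, vessels and immune cells. All mice were C57BL/6. The young sham group was 8 to 10 weeks old and had sham surgery, the aged sham group was 20 to 22 months old and had sham surgery, and the aged injury group was 20 to 22 months old and had a sciatic nerve injury. Each group had 3 libraries, each library pooled 2 mice, and tissue was taken 24 h after surgery. No young injured group was analysed here, so an effect of injury in young mice could not be set beside that in aged mice.

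Complex I (NADH dehydrogenase) and complex II (succinate dehydrogenase) pass electrons to ubiquinone, complex III passes them to cytochrome c, and complex IV (cytochrome c oxidase) passes them to oxygen. The protons pumped on the way drive ATP synthase. Most subunits are encoded in the nucleus, while the hydrophobic cores of complexes I, III, IV and ATP synthase come from mitochondrial DNA, and sensory neurons with their long axons draw heavily on this pathway. Several complex IV subunits and the c subunit of ATP synthase are encoded by more than 1 gene, and some of these isoforms are known from muscle, lung or testis.

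Some facts of the libraries touch the results below. The labelled tissue was met by its markers: summed over 11 neuronal genes, levels were 6319 to 6978 FPKM, a length- and depth-scaled fragment count, in young sham, 6130 to 6833 in aged sham and 5569 to 6252 in aged injury. The 6 satellite glia markers summed to 1535 to 1599, 1408 to 1567 and 1159 to 1303 FPKM, mostly Apoe. They did not move as 1 group. After injury Glul rose by 0.41 (log2, limma adjusted p = 0.0153), Apoe gave -0.30 (0.0698) and Fabp7 -0.53 (0.315). Ednrb gave -0.13 (0.534), Kcnj10 0.05 (0.752) and Gja1 0.13 (0.621). In aged sham against young sham, Ednrb gave -0.95 (0.00762) and Gja1 -0.80 (0.0222), and the other glia markers had adjusted p above 0.05. Of the neuronal genes, Pou4f1 and Isl1 gave -0.39 and -0.33 with age (0.0169 and 0.0284). Isl1 gave -0.26 after injury (0.0391). The other neuronal genes had adjusted p above 0.05 in both comparisons. In bulk tissue, fewer cells of a type and less RNA per cell cannot be told apart. Y-linked transcripts were at 69.7% of the young sham mean in aged sham replicate 1 and at no more than 0.0426% in the other 5 aged libraries, so sex and age cannot be told apart where young sham is compared with either aged group, and the aged sham group differs from the aged injury group by 1 library with Y-linked transcripts. FPKM hold no total counts, but 1 read was worth between 0.816 times (aged injury replicate 1, the deepest) and 1.18 times (aged sham replicate 2) as much FPKM as in young sham replicate 1.

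The genes described most closely are those that passed the test in at least 1 comparison: Ndufa11, Sdhc, Sdhd, Cox4i2, Cox7a1 and Atp5g2. RefSeq promoter windows (GRCm38.p6, 250 bases before the transcription start to 50 after it, written 5′ to 3′ on the gene's strand) were found for 66 of the 84 coding members, and for Ndufa11, Sdhd, Cox7a1 and Atp5g2 among these 6 genes. They are shown because nuclear genes of the respiratory chain are classic targets of NRF1, ETS-family factors (NRF2), YY1 and the estrogen-related receptors. Capitals mark matches, on either strand, to GCGC, any base and TGCGC in a row (NRF1), CCGGAAG (ETS), AAGATGGC (YY1) or TNAAGGTCA (estrogen-related receptors). The windows lie at chr17:56717512-56717811 (plus strand) for Ndufa11, chr9:50603800-50604099 (minus strand) for Sdhd, chr7:30183921-30184220 (plus strand) for Cox7a1 and chr15:102670998-102671297 (minus strand) for Atp5g2.
Ndufa11: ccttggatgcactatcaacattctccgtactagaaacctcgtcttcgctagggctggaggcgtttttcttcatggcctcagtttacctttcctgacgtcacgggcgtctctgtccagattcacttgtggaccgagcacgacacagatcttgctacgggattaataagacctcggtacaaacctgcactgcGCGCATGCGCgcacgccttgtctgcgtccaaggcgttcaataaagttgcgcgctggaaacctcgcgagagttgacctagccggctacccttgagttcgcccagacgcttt
Sdhd: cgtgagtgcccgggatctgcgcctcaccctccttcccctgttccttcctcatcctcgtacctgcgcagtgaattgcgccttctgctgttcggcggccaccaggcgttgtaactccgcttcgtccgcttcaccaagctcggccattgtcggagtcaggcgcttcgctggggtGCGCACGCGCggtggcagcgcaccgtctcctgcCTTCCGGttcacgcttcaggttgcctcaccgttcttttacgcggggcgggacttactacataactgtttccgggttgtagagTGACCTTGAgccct
Cox7a1: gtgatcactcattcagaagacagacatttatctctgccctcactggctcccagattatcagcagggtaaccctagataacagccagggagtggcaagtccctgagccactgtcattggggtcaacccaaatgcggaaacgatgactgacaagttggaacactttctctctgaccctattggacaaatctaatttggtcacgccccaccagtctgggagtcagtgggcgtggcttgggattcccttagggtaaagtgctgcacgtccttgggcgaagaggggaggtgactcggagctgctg
Atp5g2: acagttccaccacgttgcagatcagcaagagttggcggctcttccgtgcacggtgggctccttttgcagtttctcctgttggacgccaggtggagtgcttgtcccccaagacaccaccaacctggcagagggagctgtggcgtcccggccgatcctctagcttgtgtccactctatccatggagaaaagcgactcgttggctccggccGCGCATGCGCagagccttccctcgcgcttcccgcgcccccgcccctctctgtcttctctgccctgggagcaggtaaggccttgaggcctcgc

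Counted from the start site, Ndufa11 had the NRF1 letters at -60 to -51 and Atp5g2 at -42 to -33. The Sdhd window held an NRF1 match at -79 to -70, an ETS match at -46 to -40 and an estrogen-related receptor match at 37 to 45. The window of Cox7a1, the muscle isoform, held none of the 4. Over the 66 members, 17 (25.8%) held the NRF1 letters, against 7.17% of the windows of 17491 coding genes. ETS letters were in 16 (24.2%, against 12.9%), YY1 letters in 9 (13.6%, against 3.57%) and estrogen-related receptor letters in 3 (4.55%, against 1.19%). The letters TATAAA were in 7 (10.6%, against 14.8%) and the E-box CACGTG in 5 (7.58%, against 8.91%). The 3 members with estrogen-related receptor letters were Atp5g3, Ndufb4 and Sdhd. None of the matches marked in the windows shown overlapped another. These are matches of letters in windows of 300 bases, not measured binding.

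The subunits were among the abundant transcripts of the ganglion. By mean FPKM over the 9 libraries, 24 of 88 members (27.3%) stood at 100 FPKM or more, against 3.20% of the 17601 features above the level filter, a mean of at least 0.2 FPKM. Another 45 members lay between 10 and 100 FPKM, 15 between 1 and 10, and 4 below 1. Together the members made up 2.17% to 2.64% of the summed FPKM of a library. The highest were Ndufa4 (768 FPKM), Cox6b1 (432), Cox8a (379), Cox6a1 (375) and the small membrane subunit Atp5mpl (375), followed by Atp5b and Atp5a1, the catalytic beta and alpha subunits of ATP synthase (329 and 291). The plot of levels by complex shows this order, with the isoform genes of complex IV at its low end.

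**Figure D1:**
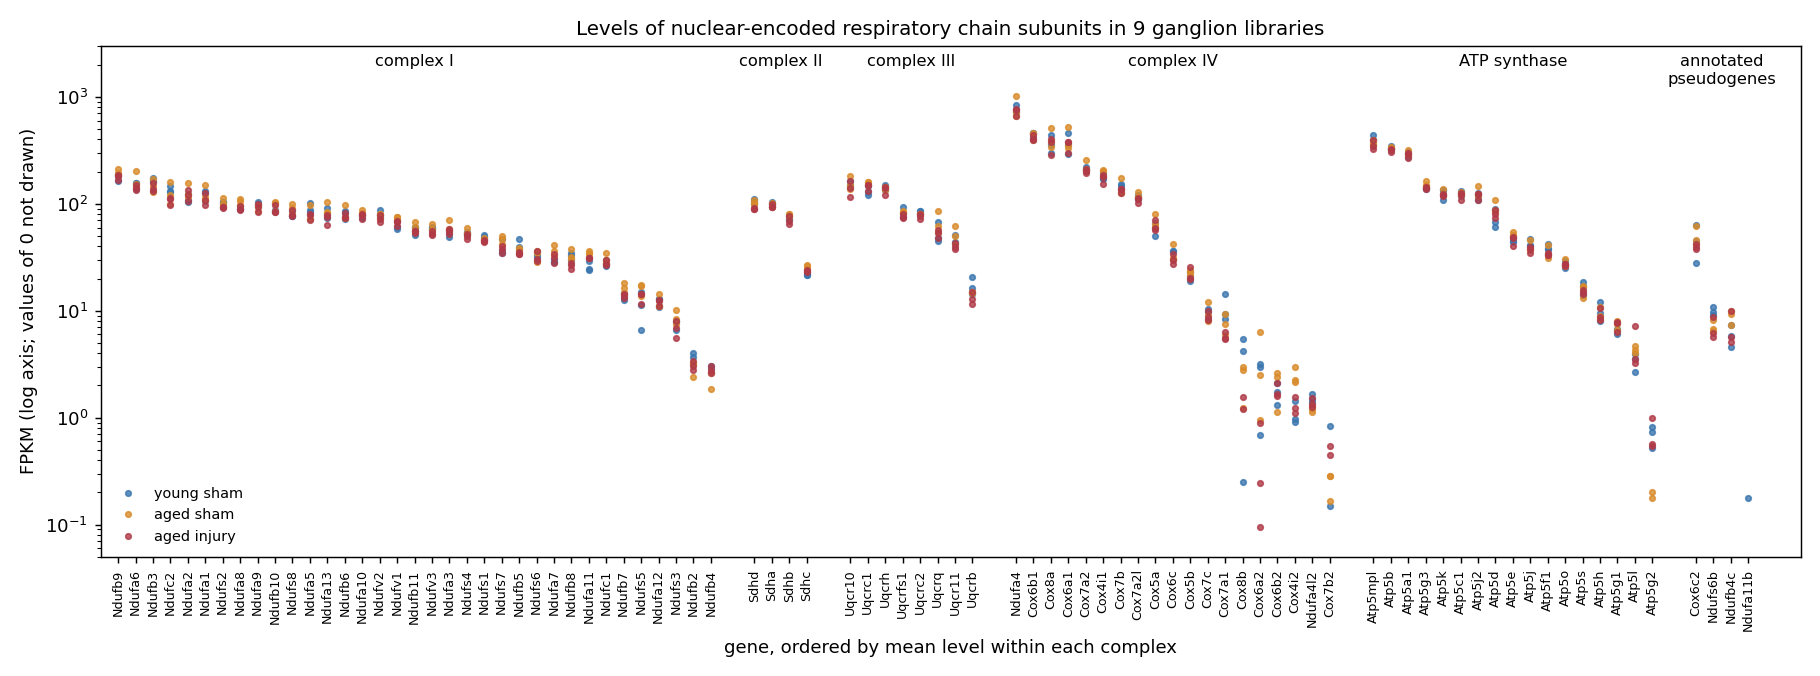
FPKM (log axis) of each member in the 9 libraries, ordered by mean level within each complex and coloured by group; values of 0 are not drawn. Most genes have 9 points close together, and the widest scatter is in Cox8b, Cox6a2 and Cox7b2.

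Within complex I the highest genes were Ndufb9 (184 FPKM) and Ndufa6 (153), both accessory subunits, and the lowest was Ndufb4 (2.69). In complex II, levels were 99.6 FPKM for Sdhd, 97.8 for Sdha, 74.4 for Sdhb and 23.8 for Sdhc, although the assembled enzyme holds 1 copy of each. Complex III ran from Uqcr10 (150 FPKM) and the core protein Uqcrc1 (144) down to Uqcrb (15.0). The lowest ATP synthase genes were Atp5g2 (0.504 FPKM) and Atp5l (4.13). Several of the lowest coding genes share sequence with other genes: 84.8% of the 50-base windows of Atp5l occur exactly in another annotated gene, as do 38.3% of those of Atp5g2, 37.0% of Ndufb4 and 39.7% of Ndufs3. The 17 coding members above the filter with at least 20% of such windows had a median of 15.0 FPKM, and the 40 with under 1% a median of 81.7 FPKM. Over the 83 coding members above the filter, Spearman's rho between that share and the level was -0.28, a description across genes that share libraries and length scaling. Reads of a gene with near-identical copies could have been split or dropped in counting, so levels of such subunits are uncertain, and their part in the low values was not tested.

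Most members varied little from library to library. Among 69 members with a mean of at least 10 FPKM the median coefficient of variation over all 9 libraries was 9.27%, beside 9.46% over all 5819 features at that level. The least variable was Sdha, the flavoprotein of complex II, whose highest library was 1.11 times its lowest, and Atp5b followed at 1.12 times. Cox6a2, a heart and skeletal muscle isoform, had the widest span among members above 0 in every library, 67.7-fold. Atp5g2, Cox7b2 and Cox8b were at 0 in at least 1 library, so no such span could be given for them. Of the 88 members 86 passed the level filter. The others were Cox8c, a testis isoform at 0 in every library, and Ndufa11b, with a single read in young sham replicate 1.

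Aged sham replicate 1, the aged library with Y-linked transcripts at 69.7% of the young sham mean, stood apart from the other libraries. It was the highest of the 9 libraries for 43 of the 86 tested members, and 78 members were above their own mean there. The median deviation of the members from their 9-library mean, on the log2(FPKM + 0.1) scale, was 0.19 in that library and between -0.10 and 0.07 in the other 8. Other short coding genes moved with it: 351 coding genes with under 1000 exonic bases had a median deviation of 0.20 there. The members are short as well, with a median of 1471.5 exonic bases against 3892 for all annotated tested features. For comparisons with aged sham, medians and sign counts over all members are therefore given with and without this library. Counts by complex, of groups that did not overlap and of unadjusted p include it. The parts of transcript length and of sex in its values were not tested.

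**Figure D2:**
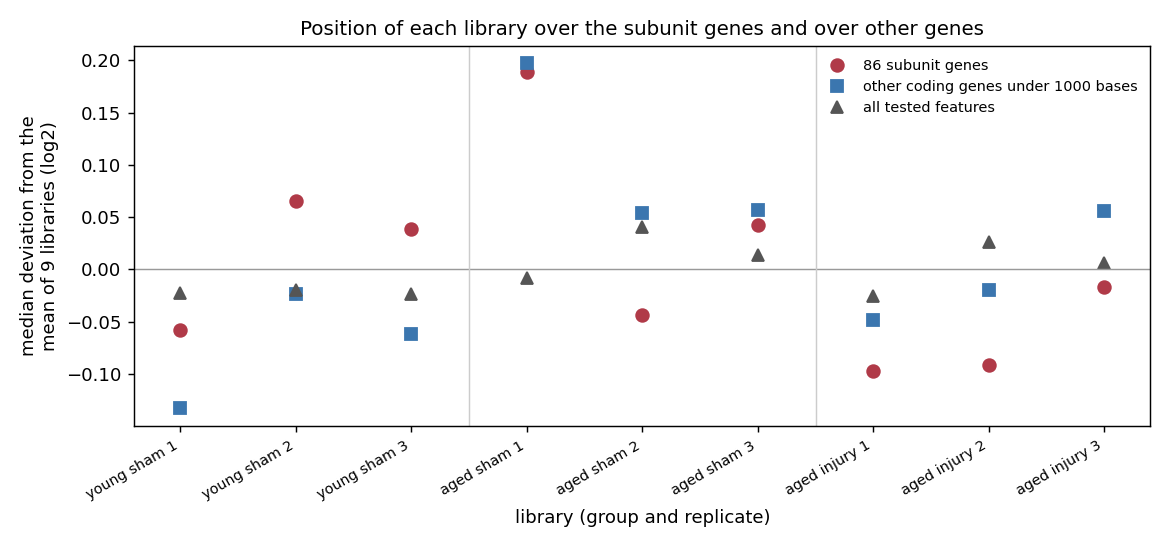
Median deviation (log2) of each library from the 9-library mean, for the 86 tested members, for other coding genes under 1000 bases and for all tested features. The members and the short genes are highest in aged sham replicate 1 (0.19 and 0.20), where all features stand at -0.01.

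Aged sham libraries were compared with young sham libraries to see how the subunits differed with age. Of the 86 members tested, 3 were higher in aged sham (Ndufa11, Sdhc and Cox4i2), beside 2.53% of all features, and 1 was lower (Atp5g2), beside 1.49%. The 4 calls are a share near the 4.02% of all features called in either direction. A call is an adjusted p under 0.05 in limma, with Benjamini-Hochberg adjustment over all 17601 features. Over the 86 members the median log2 change was 0.06, with 56 above 0, and over all features it was 0.05, with 56.7% above 0 and 43.0% below. With equal library medians 45 members (52.3%) were above 0, beside 49.6% of all features. With quantile normalization it was 47 (54.7%), beside 47.8%. Without aged sham replicate 1 the median was 0.00, with 44 members (51.2%) above 0, beside 58.0% of all features. Changes were small in most genes: 70.9% of members, and 53.2% of all features, changed by less than 0.2 on the log2 scale. The groups did not overlap for 11 members that were higher with age (background 17.7% of features) and for 6 that were lower (11.5%), which are 12.8% and 6.98% of the members. An unadjusted p under 0.05 was found for 16 of 86, beside 26.3% of all features.

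Ndufa11, an accessory subunit in the membrane arm of complex I (chromosome 17, 56717767 to 56722141, plus strand, mm10), rose with age. It stood at 24.8, 29.2 and 24.1 FPKM in young sham, 36.0, 33.9 and 34.3 in aged sham, and 30.9, 31.1 and 30.9 in aged injury. All aged sham libraries were above all young ones, and the injury libraries lay between. Group means were 26.1 ± 2.77 and 34.7 ± 1.12 FPKM (SD, n = 3 each), a rise of 0.42 ± 0.07 (SE) on the log2 scale, or 1.34-fold, with a limma adjusted p of 0.0297. The call was lost without young sham replicate 1 (adjusted p = 0.105) or 3 (0.11), aged sham replicate 2 (0.0718) or 3 (0.0894), or aged injury replicate 1 (0.0503). Without aged sham replicate 1, the library that stood apart, it held.

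Among other complex I genes the largest rise was in Ndufs5, an accessory subunit, at 6.61, 15.1 and 11.3 FPKM in young sham and 17.3, 17.1 and 13.7 in aged sham. Young sham replicate 1 was the low library and the groups overlapped, and the log2 change of 0.61 ± 0.25 did not pass the test (limma adjusted p = 0.161). Ndufb2 and Ndufb4, accessory subunits, had the lowest changes, -0.30 and -0.29, with adjusted p of 0.217 and 0.231. Over the 35 complex I members the median change was 0.08, with 23 above 0.

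Sdhc, which with Sdhd anchors succinate dehydrogenase in the inner membrane (chromosome 1, 171127165 to 171150603, minus strand), was the other complex I or II gene that rose with age. Its values were 21.6, 22.4 and 21.8 FPKM in young sham, 26.9, 24.6 and 25.9 in aged sham, and 23.2, 23.5 and 23.9 in aged injury. No young library reached an aged one. The rise was 0.23 ± 0.05 (log2, SE), 1.18-fold, with a limma adjusted p of 0.0428. This call was fragile: it held in 1 of 9 fits that each left out a library, the one without young sham replicate 2 (adjusted p = 0.0396), and lay between 0.0604 and 0.142 in the others. Among the other settings it was lost, for example, at equal library medians (log2 change 0.19, adjusted p = 0.122).

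The other complex II genes gave no call with age. Sdhd, the second anchor, stood at 101, 106 and 111 FPKM in young sham and 109, 99.2 and 101 in aged sham. Sdha was at 99.7, 103 and 95.4 against 100, 93.7 and 102 FPKM. Sdhb, the iron-sulfur subunit, had a log2 change of 0.09 (limma adjusted p = 0.4). For Sdha and Sdhd the groups overlapped and the changes were -0.02 and -0.04.

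Complex III gave no call with age either. Its largest positive changes were in Uqcrq, a ubiquinone-binding subunit (0.33, limma adjusted p = 0.31), and in the core protein Uqcrc1 (0.25, adjusted p = 0.0967). Uqcrc1 held 128, 148 and 121 FPKM in young sham and 160, 151 and 160 in aged sham, without overlap. The lowest were Uqcrb (-0.18) and the second core protein Uqcrc2 (-0.09), the latter at 85.3, 82.3 and 86.4 FPKM against 79.6, 79.6 and 80.1. Thus the 2 core proteins had changes of opposite sign, neither past the threshold.

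Cox4i2, the isoform of subunit 4 known from lung and from oxygen-sensing vessel cells (chromosome 2, 152754173 to 152765037, plus strand), showed the largest called rise among members. It was at 0.962, 1.43 and 0.910 FPKM in young sham, 2.17, 2.96 and 2.27 in aged sham, and 1.1, 1.57 and 1.22 in aged injury. The aged sham libraries were above both other groups without overlap. The rise with age was 1.11 ± 0.21 (log2, SE), 2.16-fold, with a limma adjusted p of 0.0337. These are low levels. Since FPKM of a gene are whole multiples of 1 step per library, they could be read as 10, 14 and 8 reads in young sham, 22, 26 and 23 in aged sham, and 14, 17 and 12 in aged injury, known only up to a common whole factor and within 9.2e-05 of whole numbers. The call was lost without young sham replicate 1 (adjusted p = 0.113) or 3 (0.126), aged sham replicate 2 (0.0775) or 3 (0.0929), or aged injury replicate 3 (0.0512).

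Its partner isoform Cox4i1, the ubiquitous form, was at 180 ± 12.4 FPKM in young sham and 197 ± 14.6 in aged sham (SD, n = 3 each), with a log2 change of 0.13 and a limma adjusted p of 0.388. Cox4i2 made up 0.601% ± 0.112 of the summed FPKM of the pair in young sham, 1.25% ± 0.317 in aged sham and 0.759% ± 0.219 in aged injury. Cox4i2 is known from pericytes and smooth muscle. Their 5 markers, none at 0, summed to 69.0 to 80.0 FPKM in young sham, 50.5 to 61.2 in aged sham and 68.0 to 81.7 in aged injury. The sum is mostly Rgs5, a pericyte gene, which fell by 0.49 with age (limma adjusted p = 0.0331) and rose by 0.46 after injury (0.0271). The other 4 (Kcnj8, Abcc9, Acta2 and Myh11) were not called, and Kcnj8 had changes of -0.20 with age and -0.31 after injury. The part of vessel cells in the Cox4i2 values was not tested. Elsewhere in complex IV the changes with age furthest from 0 were those of Cox6a2 (0.38, adjusted p = 0.801), Cox7a1 (-0.47, 0.195) and Ndufa4l2 (-0.31, 0.173), none of them called.

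**Figure D3:**
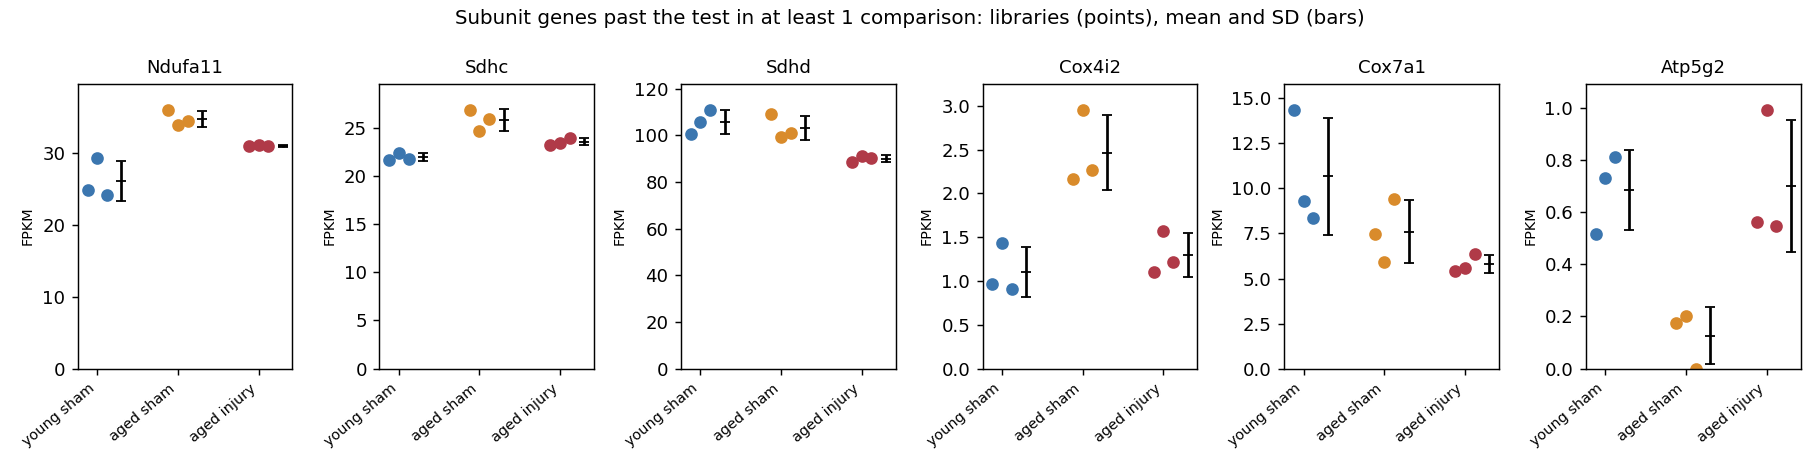
FPKM of the 6 members past the test in at least 1 comparison, with libraries as points and the mean and SD of each group as bars; every axis starts at 0. Aged sham libraries are above both other groups in Ndufa11, Sdhc and Cox4i2 and below them in Atp5g2, and aged injury libraries are lowest in Sdhd.

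Atp5g2 (chromosome 15, 102662864 to 102672352, minus strand), 1 of 3 genes for the c subunit that forms the rotor ring of ATP synthase, was the only member called lower with age. It was listed at 0.516, 0.730 and 0.813 FPKM in young sham, 0.176, 0.203 and 0 in aged sham, and 0.561, 0.993 and 0.545 in aged injury. The groups did not overlap, and the log2 change was -1.93 ± 0.45 with a limma adjusted p of 0.0481. The steps correspond to 3, 4 and 4 reads in young sham, 1, 1 and 0 in aged sham, and 4, 6 and 3 in aged injury, again up to a common factor, 26 in all. The call rested on all libraries: it was lost in each of the 9 fits that left one out, with adjusted p from 0.0583 to 0.167. The log2 change depended on the pseudocount, and was -0.58 at 1 FPKM and -3.22 at 0.01 FPKM.

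The c subunit as a whole was carried by Atp5g3, at 137, 142 and 142 FPKM in young sham, 165, 147 and 149 in aged sham and 139, 137 and 145 in aged injury. It made up 95.2%, 95.4% and 94.6% of the summed FPKM of the 3 genes in the group means. Its log2 change with age was 0.13 (limma adjusted p = 0.181). Atp5g1 supplied most of the rest, 4.39% in young sham, 4.55% in aged sham and 4.92% in aged injury. All 3 genes encode the same mature protein. Elsewhere in ATP synthase, Atp5d, the delta subunit, and Atp5l, the g subunit, had the highest changes with age, both 0.37, with adjusted p of 0.155 and 0.411, and Atp5f1, a stator subunit, had -0.15 (0.346).

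Aged injury libraries were compared with aged sham libraries to see how the subunits differed after nerve injury in aged mice. Of 86 members 1 was called higher (Atp5g2), beside 2.45% of all features, and 1 lower (Cox4i2), beside 1.65%, which makes 2 beside 4.11% in either direction. While few members passed the test, their signs were one-sided: 81 of 86 had a log2 change below 0, against 52.1% of all features (47.8% were above 0), with a median of -0.13 against -0.01. In the 2 other scalings 4 and 5 members, rather than 5, were above 0, beside 42.7% and 46.0% of all features. Without aged sham replicate 1 the median was -0.07, with 64 members below 0 and 22 above (25.6%). Over all features it was then -0.02, with 45.4% above 0. Other coding genes under 1000 bases had a median of -0.12 with that library and -0.09 without it. The members lower in all injury libraries than in any aged sham library numbered 20 (23.3%, background 13.7%), and 1 was higher throughout (background 11.7%). Sizes were again small, with 74.4% of members, and 60.3% of all features, under 0.2 in either direction, and 19 of 86 members had an unadjusted p under 0.05, a share near the 19.8% of all features.

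**Figure D4:**
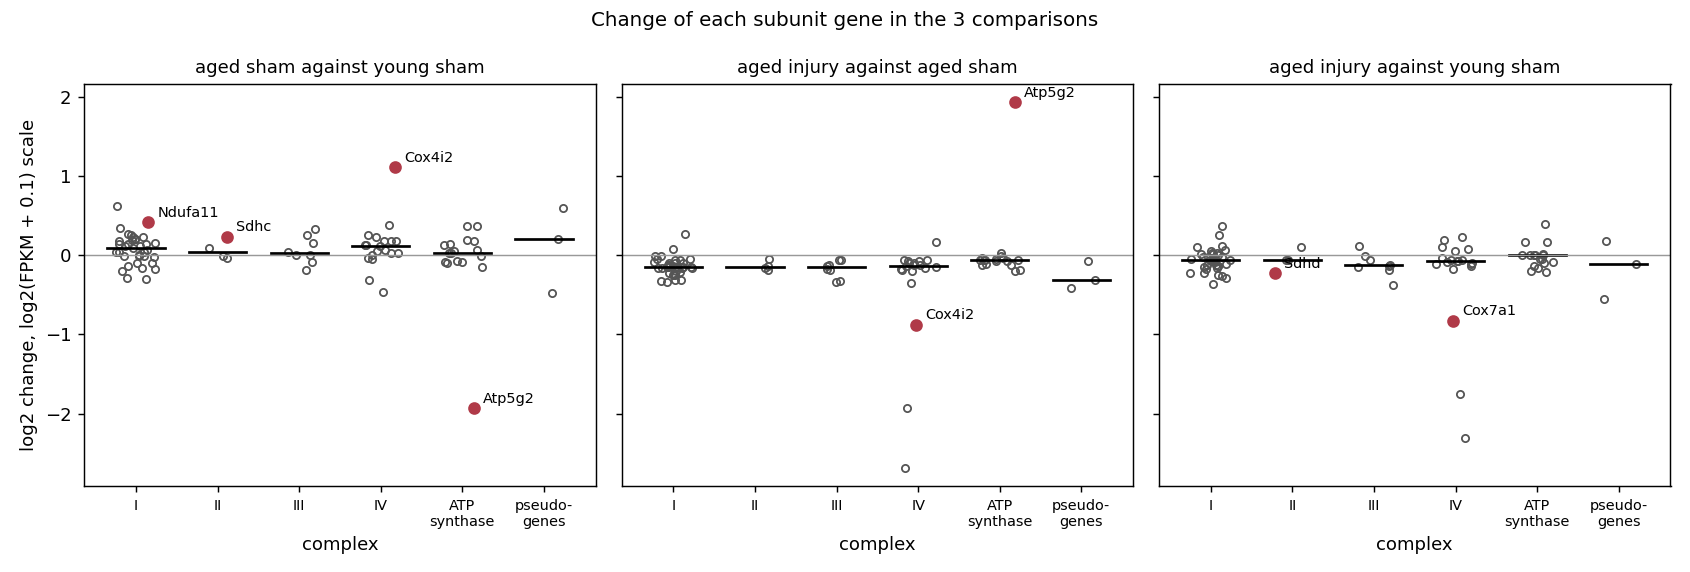
Log2 change of each tested member in the 3 comparisons, by complex; filled points passed the test, bars are medians. In aged injury against aged sham nearly all points lie just below 0, with medians from -0.07 in ATP synthase to -0.15 in complexes I and III for the coding genes. Aged sham replicate 1 is included.

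By complex, the median change after injury was -0.15 in complex I (33 of 35 members below 0), -0.15 in complex II (4 of 4), -0.15 in complex III (8 of 8), -0.13 in complex IV (18 of 19) and -0.07 in ATP synthase (15 of 17). The 5 members above 0 were Ndufb2, Ndufb4, Ndufa4l2, Atp5l and Atp5g2, all with a mean under 10 FPKM. The 3 tested pseudogenes had a median of -0.32. All these values include aged sham replicate 1. Since the age and injury comparisons share the aged sham libraries, a high or low value in these enters both with opposite sign, and changes of a gene in the 2 comparisons are not independent.

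Ndufb8, an accessory subunit whose protein is often used as a readout of complex I assembly, came nearest to a call in complex I. Aged sham libraries held 38.0, 31.9 and 30.7 FPKM and aged injury libraries 27.0, 24.7 and 28.2, without overlap, and young sham libraries 29.9, 34.4 and 33.3. The log2 change after injury was -0.33 ± 0.09, with a limma adjusted p of 0.0891. Ndufa8 levels were 106, 96.8 and 111 FPKM in the aged sham libraries, all above the 89.3, 87.5 and 95.1 after injury (log2 change -0.21, adjusted p = 0.11). Ndufs3, a core subunit of the matrix arm, had the lowest change in the complex, -0.34, with overlapping groups and an adjusted p of 0.258. Ndufa11 and Sdhc, higher with age, had changes of -0.16 and -0.13 after injury, with adjusted p of 0.251 and 0.195.

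Sdhd (chromosome 9, 50596357 to 50603812, minus strand) gave 88.5, 91.2 and 90.3 FPKM after injury, beside 109, 99.2 and 101 in aged sham. Each injury library was below each aged sham library, and the change of -0.19 ± 0.06 had a limma adjusted p of 0.099. Sdhb was at 78.7 ± 2.51 and 70.6 ± 6.04 FPKM (SD, n = 3 each), a change of -0.16 with an adjusted p of 0.221. Sdha changed by -0.04 (adjusted p = 0.73). In complex III the lowest changes were in Uqcr11 and Uqcrq, small subunits, with -0.33 each and adjusted p of 0.205 and 0.389. Both were highest in aged sham replicate 1, at 62.2 and 86.5 FPKM, and their groups overlapped. No overlap was seen for Uqcrc1 and the Rieske iron-sulfur protein Uqcrfs1, with changes of -0.13 each and adjusted p of 0.417 and 0.365.

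Cox4i2 fell by 0.88 ± 0.21 (log2, SE) after injury, 1.84-fold, with a limma adjusted p of 0.0490, from the aged sham values given above to values close to the young ones. The call held in 1 of the 9 fits that left out a library, the one without young sham replicate 2 (adjusted p = 0.0333), and the others ranged from 0.056 to 0.16. Atp5g2 rose by 1.93 ± 0.45 (adjusted p = 0.0472), on the few reads given above. All 9 such fits lost it, with adjusted p from 0.0583 to 0.138. Ndufa4l2, the paralog of Ndufa4 known as a target of hypoxia-inducible factor, had 1.21, 1.12 and 1.29 FPKM in the aged sham libraries and 1.35, 1.52 and 1.25 after injury, with overlap and a limma adjusted p of 0.525. Atp5e, the epsilon subunit, and Atp5d had the lowest changes in ATP synthase, -0.18 and -0.20, with adjusted p of 0.227 and 0.507.

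The muscle isoforms of complex IV spread widely within groups. Cox6a2 stood at 2.997, 3.18 and 0.681 FPKM in young sham, 2.48, 0.954 and 6.37 in aged sham, and 0.0941, 0.887 and 0.244 in aged injury. Its change after injury was -2.69 ± 0.82, the lowest of all members, with a limma adjusted p of 0.107. Cox8b was at 5.45, 4.22 and 0.247 FPKM in young sham, 3.004, 1.24 and 2.79 in aged sham, and 0, 1.21 and 1.55 in aged injury (change after injury -1.93, adjusted p = 0.436). Young sham replicate 3 was low in both genes, as was aged injury replicate 1.

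Skeletal muscle genes also spread widely within groups. The sum over 10 markers of skeletal and heart muscle, none at 0 in every library, was 319, 181 and 35.3 FPKM in young sham, 69.9, 15.1 and 229 in aged sham, and 3.85, 34.1 and 21.5 in aged injury. The sum is carried by skeletal muscle genes, among them Acta1 (1.17 to 107 FPKM over the libraries) and Ckm (0.437 to 39.0), whereas the heart genes Myh6 (0.137 to 0.300) and Myl2 (0.0822 to 0.873) stayed under 1 FPKM and Myl2 was higher in young sham replicate 3 than in replicate 1. The lowest Cox6a2 value was in the library with the lowest muscle sum. Its highest value, 6.37 FPKM, was in aged sham replicate 3, where the sum was 229 FPKM. The highest sum, 319 FPKM in young sham replicate 1, came with 2.997 FPKM of Cox6a2. Cox8b differed in order from the sum in aged sham, with 3.004 FPKM in replicate 1 and 2.79 in replicate 3. Of 3 brown fat markers, another tissue with Cox8b, Ucp1 was at most 0.109 FPKM and Elovl3 at most 0.0413, while Cidea was between 1.24 and 3.06 FPKM in every library. The 4 white fat markers, mostly Cfd, summed to 61.0, 23.5 and 3.56 FPKM in young sham and 24.0, 30.1 and 7.20 in aged sham. In aged injury they summed to 5.49, 20.8 and 33.4 FPKM. Cox8b had the order of that sum within young sham and within aged injury, but not within aged sham. Cox6a2 had that order in none of the groups. The part of muscle or fat RNA in the isoform values was not tested. The ubiquitous partners Cox6a1 and Cox8a stood at 369 ± 83.7 and 365 ± 69.7 FPKM in young sham (SD, n = 3 each), and Cox6a2 made up 0.585% of its pair there and Cox8b 0.848%.

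**Figure D5:**
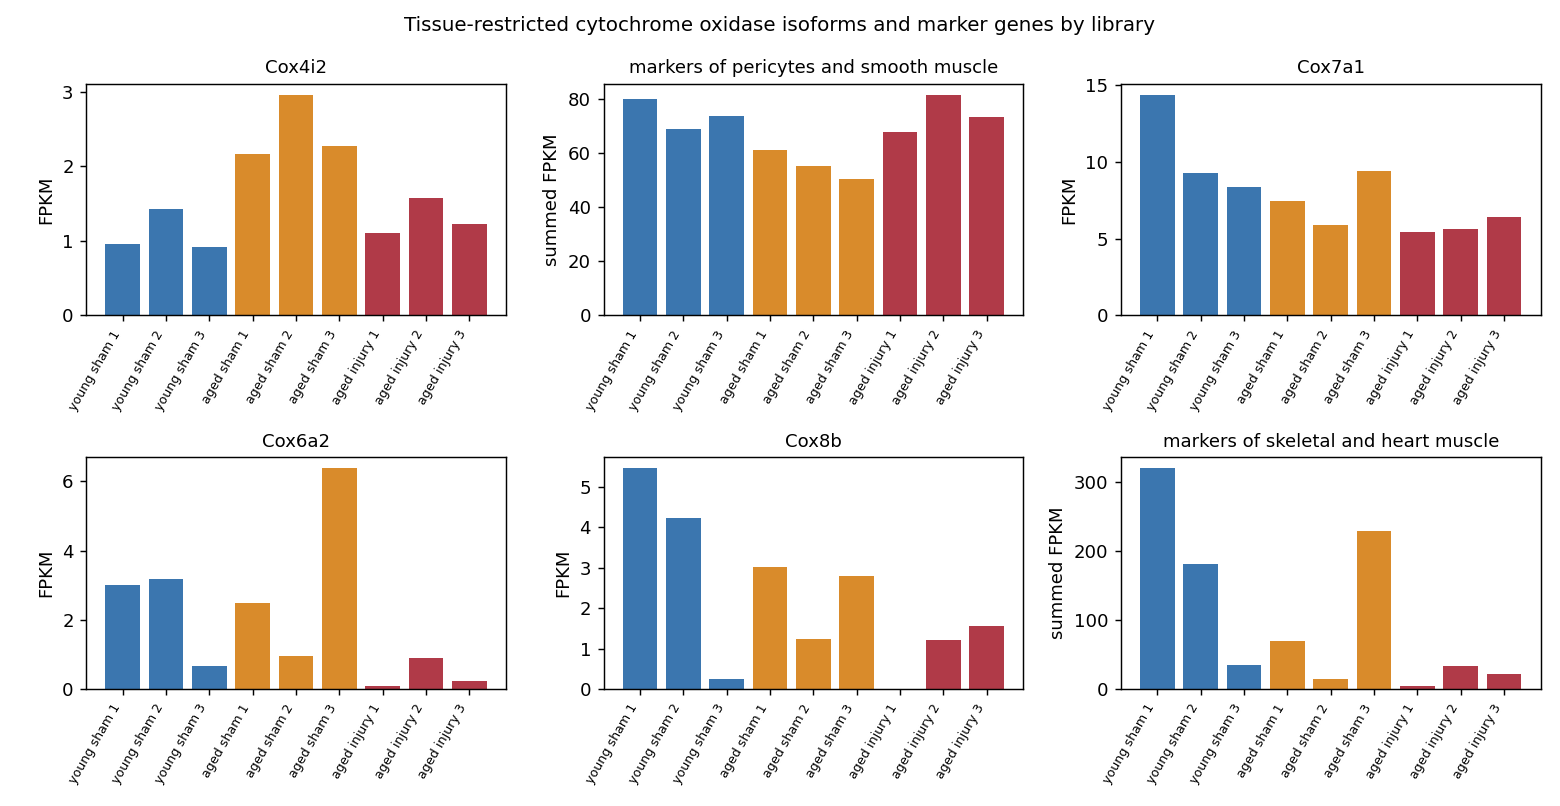
FPKM per library of Cox4i2, Cox7a1, Cox6a2 and Cox8b, and summed FPKM of 5 markers of pericytes and smooth muscle and of 10 markers of skeletal and heart muscle; bars are single libraries. Cox6a2 and the muscle sum are both highest among aged libraries in aged sham replicate 3 (6.37 and 229 FPKM) and both lowest in aged injury replicate 1 (0.0941 and 3.85 FPKM).

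Of the testis isoforms, Cox6b2 was at 1.72 ± 0.402, 2.04 ± 0.790 and 1.79 ± 0.276 FPKM in the 3 groups (SD, n = 3 each), beside its partner Cox6b1 at 448 ± 20.5, 434 ± 35.5 and 413 ± 23.0. Cox7b2 rested on 19 reads over the 9 libraries, against a mean of 140 FPKM for Cox7b. The pattern common to these pairs was a dominant ubiquitous gene: apart from Cox7a1, no minor complex IV isoform passed 2% of its pair in any library. Cox7a2l was at 116 ± 4.99, 121 ± 8.01 and 109 ± 5.97 FPKM.

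Aged injury and young sham libraries differ in age, in surgery and, by their Y-linked transcripts, in sex, which cannot be told apart here, and 13.1% of all features were called between them. Of the 86 members 0 were called higher, beside 8.2% of all features, with Ndufa11 nearest (0.25, limma adjusted p = 0.0509), and 2 were called lower, beside 4.89%. At an unadjusted p under 0.05 there were 13 of 86, a smaller share than the 29.4% of all features. The median change was -0.07, with 59 members below 0 and 27 above, against 0.02 over all features, of which 46.5% were below 0 and 53.2% above. Groups did not overlap for 14 members that were lower (16.3%, background 15.5%) and 2 that were higher (background 19.9%). The share of lower members without overlap is near that of all features. The 2 members called lower are 2.33% of the 86, a smaller share than the 4.89% of all features.

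Sdhd was lower by 0.23 ± 0.06 (log2, SE), 1.17-fold, with group means of 106 ± 5.19 and 90.005 ± 1.38 FPKM (SD, n = 3 each) and a limma adjusted p of 0.0302. The call was lost without young sham replicate 2 (adjusted p = 0.0549) or 3 (0.103), or aged injury replicate 1 (0.09), 2 (0.0638) or 3 (0.0884). Cox7a1, the heart and skeletal muscle isoform of subunit 7a (chromosome 7, 30184144 to 30186078, plus strand), was at 14.4, 9.28 and 8.37 FPKM in young sham, 7.47, 5.91 and 9.39 in aged sham, and 5.44, 5.61 and 6.39 in aged injury. Young sham and aged injury did not overlap, and the difference was -0.83 ± 0.21, 1.78-fold, with a limma adjusted p of 0.0348. That call was lost without young sham replicate 1 (adjusted p = 0.0879) or aged injury replicate 1 (0.0922), 2 (0.0813) or 3 (0.0734). Cox7a1 made up 4.75% ± 1.52, 3.30% ± 0.824 and 2.78% ± 0.132 of its summed FPKM with Cox7a2 in the 3 groups. The muscle marker sums given above had the same order in part. Within young sham and within aged sham the libraries have the same order by Cox7a1 as by the muscle sum. Within aged injury they do not: Cox7a1 was highest in replicate 3 (6.39 FPKM) and the sum in replicate 2 (34.1 FPKM, beside 21.5 in replicate 3). Over all 9 libraries both are highest in young sham replicate 1 and lowest in aged injury replicate 1. By the white fat sum, the order was that of Cox7a1 within young sham and within aged injury, but not within aged sham. The part of muscle or fat RNA in this difference was not tested.

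Genes that act beside the subunits were taken from other lists. The mitochondrially encoded subunits, which pair with the nuclear ones inside complexes I, III, IV and ATP synthase, had 11 genes above the filter. All 11 had a change below 0 with age, with a median of -0.37, none was called by limma, and 6 had an unadjusted p under 0.05 (26.3% of all features had). For mt-Nd2, a complex I core subunit, values were 2011, 1703 and 2284 FPKM in young sham, 1673, 1206 and 1054 in aged sham, and 1354, 1422 and 1166 in aged injury (change with age -0.63, adjusted p = 0.0693). Without aged sham replicate 1 the median change of the 11 was -0.69. After injury the median was 0.02, and 0.21 without that library. The nuclear members had a median change of 0.06 with age in the same libraries, and the difference between the lists was not tested. mt-Co2, mt-Co3 and mt-Atp6 were listed at no more than 2.04 FPKM beside 4803 to 8816 for mt-Co1, so the counting of mitochondrial reads is uncertain.

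Assembly factors of the complexes had 44 tested genes, with Coa3, for complex IV, called higher with age (0.26, limma adjusted p = 0.0476) and Ndufaf4, for complex I, lower (-0.52, adjusted p = 0.0382). After injury Ndufaf6 was called lower (-0.39). The 75 tested mitochondrial ribosomal protein genes had a median of 0.07 with age, 2 called higher (Mrpl52 and Mrps24) and 1 lower (Mrpl18). After injury their median was -0.17, with 70 of 75 below 0 and 1 called lower (Mrps11, -0.39, adjusted p = 0.0362). Of all features 52.1% were below 0 and 1.65% were called lower. Without aged sham replicate 1, 64 of the 75 were below 0, with a median of -0.13. Supercomplex and cristae genes had 12 tested members and 1 call, Apoo, lower with age (-1.31, adjusted p = 0.0376).

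Upstream in fuel use, 17 citrate cycle genes held 2 calls with age, both lower: Dld, the E3 subunit of the 2-oxo acid dehydrogenases (-0.46, limma adjusted p = 0.0273), and Idh3a (-0.21, adjusted p = 0.0498). Of all features 1.49% were called lower with age. None of the 17 was called after injury by limma, where 4 had an unadjusted p under 0.05 (19.8% of all features had). Of 19 glycolysis genes Aldoc rose with age (0.40, adjusted p = 0.035). After injury the glucose transporters Slc2a1 and Slc2a3 rose by 0.67 and 0.39 (adjusted p = 0.00766 and 0.0255), while 14 of the 19 had changes below 0 (52.1% of all features had). Levels of Slc2a1 were 27.2, 23.9 and 22.3 FPKM in aged sham, all below the injured libraries with 41.4, 34.4 and 41.1.

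Among 19 regulators of mitochondrial biogenesis, Esrra, the estrogen-related receptor alpha, fell after injury from 19.5, 18.5 and 18.0 FPKM to 13.5, 14.7 and 14.1, with no overlap (-0.40, limma adjusted p = 0.0145). Esrrg, its gamma relative, fell with age (-0.45, adjusted p = 0.0287). The coactivator Ppargc1a gave -0.38 with age (adjusted p = 0.0538), and Nrf1 and Tfam gave 0.10 and -0.12 (0.675 and 0.46). Of 19 antioxidant and uncoupling genes none was called by limma with age or after injury. An unadjusted p under 0.05 was found for 6 and 3 of them, beside 26.3% and 19.8% of all features. No list had more than 3 calls in either comparison, while 4.02% of all features were called with age and 4.11% after injury.

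The genes outside the set whose levels over the 9 libraries were most like the mean of the standardised members were Clec2l (Pearson r = 0.978), Rita1 (0.965), Tomm5 (0.963), Lamtor1 (0.961) and Hddc2 (0.953), a description over 9 libraries chosen from all features with a mean of at least 1 FPKM. All 5 were highest in aged sham replicate 1: Clec2l, for example, was at 143 FPKM there and between 95.5 and 127 in the other libraries. Tomm5 encodes a small subunit of the import channel of the mitochondrial outer membrane. The 3 members on the X chromosome, Ndufa1, Ndufb11 and Cox7b, had changes with age of 0.04, 0.11 and -0.04, with none called in any comparison.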

How the data were processed

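RNA from whole ganglia was sequenced after mRNA selection, and the authors deposited FPKM per gene and library. The submitters' processing notes list build mm10 and, with no role or order, limma 3.22.7, HTSeq 0.6.0, edgeR 3.8.6, TopHat2 2.0.12, SAMtools 0.1.19 and Bowtie2 2.2.3. The gene annotation and the use of strand were not given in the sources used here. Symbols came from GENCODE M21, promoters from RefSeq. For the tests, log2(FPKM + 0.1) of features averaging 0.2 FPKM or more entered limma 3.58.1 (R 4.3.3; trended variance), all 9 libraries in 1 fit, two-sided, and Benjamini-Hochberg adjustment over 17601 features. This scale understates changes of low genes. Nothing in the labels links libraries beyond pools of 2 mice, so p-values reflect only how far these pools differ.

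Members and lists were chosen with earlier results of these data known. Genes named were all called members, the extremes of each complex by change and level, the isoform sets, and called genes of other lists. Ndufa8, Cox7a2l, Nrf1, Tfam, Ppargc1a, Uqcrfs1, mt-Nd2 and the marker genes were added after their values were seen. 1 marker list is not reported here. The script was tested on simulated data. Alternatives were other pseudocounts, no filter, equal medians, quantile normalization, the 2 groups alone, a replicate block, array weights and leaving out each library.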

Additional observations from a re-analysis of the deposited data

How the results depend on the processing

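Member calls depended on the settings, and calls and medians on the libraries kept. With no level filter, age calls were 239 features and 1 member (707 and 4 as reported), injury calls 0 members and injury against young sham 1 member. With array weights, age gave 2020 features and 7 members, and injury against young sham 3755 features and 5 members (2304 and 2 as reported). With only the 2 groups compared, age gave 119 features and 0 members, and injury 380 features and 0 members (723 and 2 as reported). A pseudocount of 0.01 FPKM left 0 members called after injury. Equal medians gave 6 and quantile normalization 5 members for injury against young sham. Leaving out 1 library gave 34 to 1571 features and 0 to 8 members for age, with member medians of 0.004 to 0.121. For injury it gave 172 to 737 features, 0 to 1 members and medians of -0.184 to -0.065, and for injury against young sham 957 to 2432 features, 0 to 5 members and medians of -0.11 to -0.037. The causes were not tested.

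Changes that reversed were small or noisy. With age, Sdha ran from -0.046 to 0.019 over the fits that left out 1 library (above 0 at 0.012 if young sham replicate 2 and at 0.019 if aged sham replicate 2 was left out). Cox6a2 ran from -0.293 (young sham replicate 3 left out) to 1.035, and was -0.275 with aged sham replicate 3 left out. After injury, Atp5l was -0.008 at equal medians and ran from -0.331 (aged injury replicate 3 left out) to 0.227, with -0.028 when aged sham replicate 2 was left out. Ndufb2 ran from -0.062 (aged sham replicate 3 left out) to 0.153. Of the other results for single genes, 558 kept their side, 76 lost a call and 4 gained one.

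The replicate number of the labels as a block gave 101 features and 1 member for age, 273 features and 1 member for injury, and 0 members for injury against young sham. Deviations of same-numbered aged sham and aged injury libraries correlated at 0.245, 0.27 and 0.062. Differently numbered ones gave -0.26 to 0.041, all below the same-numbered values. Young libraries and same-numbered aged ones correlated at -0.067 to -0.02. Whether the numbers link the aged sham and aged injury libraries was not tested, and the main fit used no block. The 3 pools per group limit how small a change can pass the test, and low reads limit Atp5g2, Cox4i2 and the minor isoforms.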
